A study of Mus musculus with 12 samples.

Results

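A set of 9 genes in common use as markers of the first steps away from naive pluripotency were followed in mouse embryonic stem cells (ESCs) with and without Dgcr8. They were 3 formative markers (Fgf5, Otx2 and Pou3f1), 3 mesendoderm markers (T, Eomes and Mixl1) and 3 endoderm markers (Gata4, Gata6 and Sox17). The members were taken by name as known markers, with earlier results of these data known, and all 9 were found by gene symbol among the 51467 gene rows of the deposited count table. Wild-type ESCs of the V6.5 line and Dgcr8 KO ESCs, a single line that had been made earlier, were both grown in serum medium with LIF and the inhibitors PD0325901 and CHIR99021, and none of the samples used here had been moved toward epiblast-like cells. Cells of both genotypes received 500 uM 4-thiouridine (4sU), a uridine analogue, for 30 min, and each labelled RNA sample was split. RNA that carried 4sU was captured and sequenced as a measure of nascent transcription (4sU libraries), and RNA depleted of ribosomal RNA was sequenced as a measure of steady-state levels (total libraries). Each genotype was represented by 3 replicates in either type of library, which makes 12 libraries.

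Naive ESCs stand for the epiblast before implantation. On the way to gastrulation the epiblast passes through a formative state, in which Fgf5, Otx2 and Pou3f1 are switched on, and then gives rise to mesendoderm, marked by the T-box factors T and Eomes and the homeobox factor Mixl1. Gata4, Gata6 and Sox17 are transcription factors of the primitive and definitive endoderm. DGCR8 is the RNA-binding partner of DROSHA, and cells without it lack the canonical microRNAs. In mouse ESCs many of these share the seed of the miR-290 and miR-302 clusters, known as the ESC cell cycle regulating (ESCC) microRNAs. A microRNA pairs through its seed with the 3′ UTR of an mRNA and shortens the life of that mRNA or slows its translation.

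Libraries held 4593914 to 9295245 counts, with the 4sU libraries at 4593914 to 6005526 and the total libraries at 6873708 to 9295245. Levels (CPM, counts scaled to the size of the library) use TMM factors, so every level is relative to the other RNAs of its library. Dgcr8 itself was at 92.0 to 111 CPM in the wild-type total libraries and at 31.9 to 33.9 CPM in the Dgcr8 KO total libraries, and at 107 to 118 CPM and 70.8 to 86.4 CPM in the 4sU libraries. The counts cover the whole gene, so reads from parts of Dgcr8 that the allele keeps are included. The pluripotency genes that define ESCs were abundant in every library. Pou5f1 lay at 823 to 1020 CPM, Sox2 at 482 to 622 CPM and Nanog at 653 to 773 CPM in the total libraries of both genotypes.

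All of the markers were low in these cells. Of the 9 genes, 5 (Otx2, Pou3f1, Eomes, Mixl1 and Gata4) reached 3 CPM in at least 3 of the 12 libraries, the minimum for the test across genes, which 27.3% of gene rows met. The other 4 (Fgf5, T, Gata6 and Sox17) did not, and for them the counts are given with the ratio of pooled counts and its exact 95% interval, which covers counting error only. Otx2, Eomes and Gata4 met the minimum in both genotypes. Mixl1 met it through the 3 wild-type 4sU libraries alone, and Pou3f1 through the 6 wild-type libraries, with 1 Dgcr8 KO library at 3 CPM. Since these 2 entered the test through the genotype in which they are high, their values are also given from a fit with no minimum beyond 1 count. Fgf5 was at or under 3 counts in every library of all 4 groups. T and Gata6 were at or under 3 counts in every Dgcr8 KO library of both types. In these bulk samples fewer cells that express a marker and less RNA per cell cannot be told apart.

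**Figure D1:**
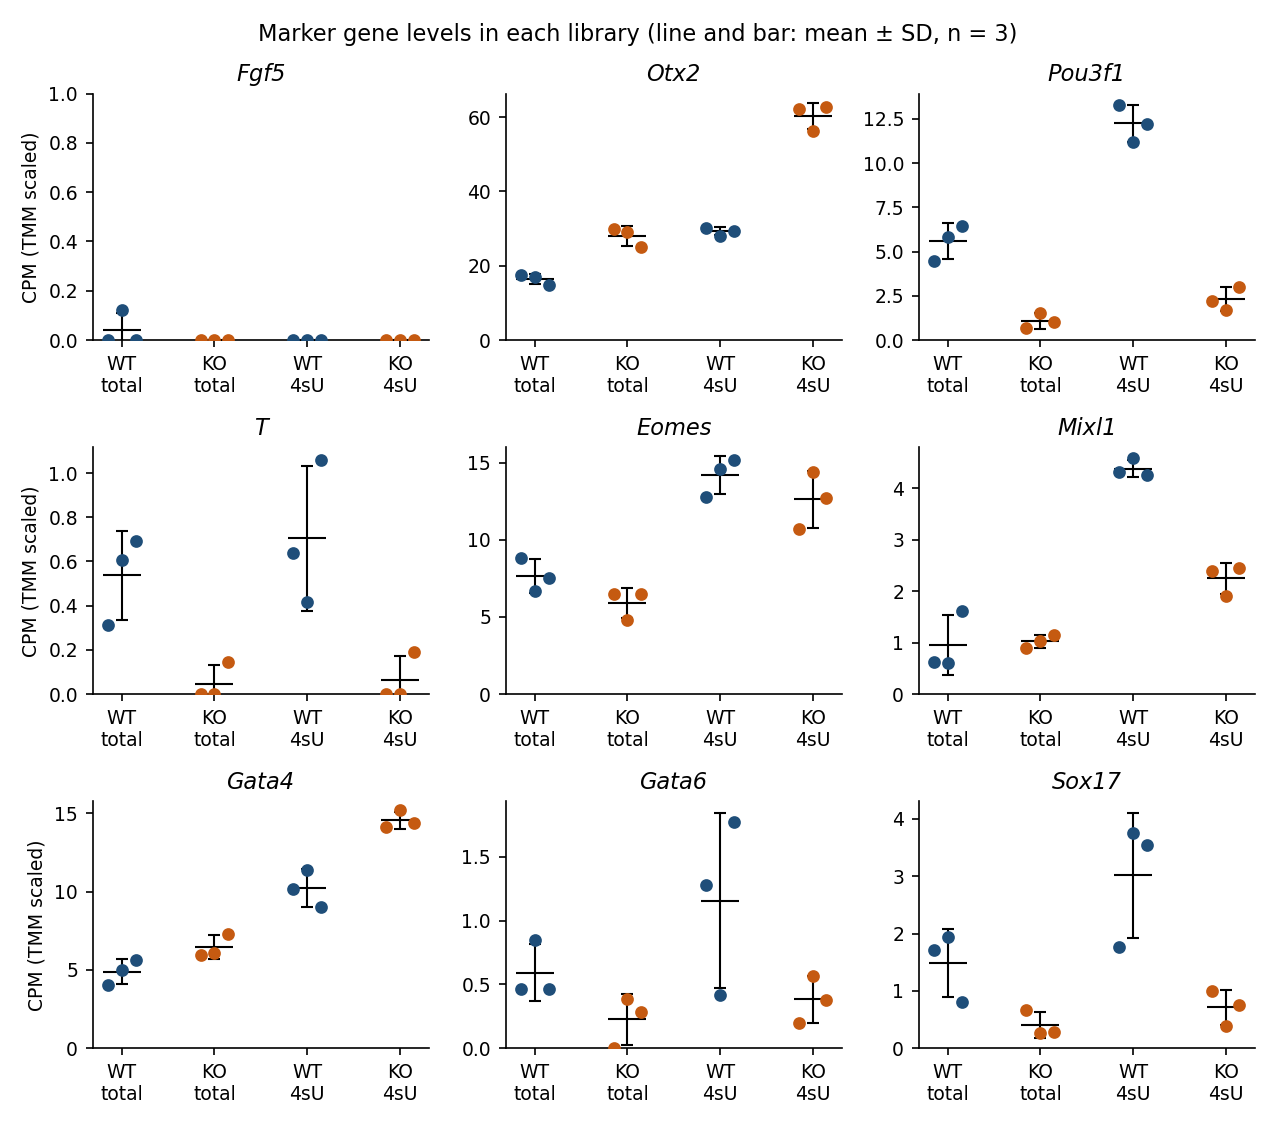
Level of each of the 9 markers in every library, in CPM with TMM scaling (vertical axes start at 0 and differ between panels), with points for libraries (blue, wild-type and orange, Dgcr8 KO) and lines with bars for the mean ± SD of 3 libraries. Otx2 lies higher in Dgcr8 KO in both library types, Pou3f1 lies lower in both, and Fgf5 has 1 count in 1 wild-type library.

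Among the formative markers, Otx2 was higher and Pou3f1 was lower in Dgcr8 KO, and Fgf5 was not detectable. Fgf5 (mm10 chr5:98254184-98277030, plus strand) encodes a secreted fibroblast growth factor and is the classical marker of the epiblast after implantation. It had 1 count in wild-type total library 2 and 0 counts in the other libraries. A count of 0 allows up to 3 counts, which equals 0.337 to 0.624 CPM depending on the library, so no ratio between genotypes was formed.

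Otx2 (ENSMUSG00000021848.15, mm10 chr14:48657679-48667513, minus strand), a homeobox factor that helps to drive exit from the naive state, was the most abundant marker. It had 17.4, 17.1 and 14.9 CPM in the wild-type total libraries and 29.8, 29.2 and 25.0 CPM in the Dgcr8 KO total libraries. In the 4sU libraries it had 30.2, 28.1 and 29.4 CPM in wild-type and 62.1, 56.2 and 62.7 CPM in Dgcr8 KO. The genotypes did not overlap in either library type. The log2 change, Dgcr8 KO minus wild-type, was 0.78 (SE 0.107, limma adjusted p = 1.70e-07) in total RNA and 1.04 (SE 0.0956, limma adjusted p = 8.29e-11) in nascent RNA. A call needed both an adjusted p under 0.05 and a log2 change larger than 1 in size, so Otx2 was called in nascent RNA and fell short of the limit on the change in total RNA. The nascent value lay close to that limit. DESeq2 gave 0.98, RLE scaling gave 0.98 and upper-quartile scaling gave 0.99, and in these 3 fits Otx2 was not called although its adjusted p stayed under 0.05.

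Pou3f1 (ENSMUSG00000090125.3, mm10 chr4:124656807-124660655, plus strand), a POU-domain factor of the formative epiblast and the early neural lineage, moved the opposite way. Its total RNA was 4.50, 5.82 and 6.47 CPM in wild-type and 0.674, 1.55 and 1.01 CPM in Dgcr8 KO. Its nascent RNA was 13.3, 11.2 and 12.2 CPM in wild-type and 2.19, 1.71 and 3.03 CPM in Dgcr8 KO. Every Dgcr8 KO library lay far below every wild-type library of its type. Pou3f1 fell in total RNA (log2 change -2.42, SE 0.340, limma adjusted p = 2.23e-07) and in nascent RNA (log2 change -2.40, SE 0.289, limma adjusted p = 2.16e-08), a 5.36-fold and a 5.28-fold difference. With no minimum the log2 changes were -2.38 (limma adjusted p = 4.95e-06) and -2.39 (limma adjusted p = 1.07e-06). The raw counts behind these values were 29 to 56 in wild-type and 6 to 12 in Dgcr8 KO total libraries.

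Of the mesendoderm markers, T had 0 or 1 count in each Dgcr8 KO library, and neither Mixl1 nor Eomes was called by limma. T (mm10 chr17:8434423-8442496, plus strand), also known as Brachyury, is a T-box factor of the primitive streak and early mesoderm. It had 2, 5 and 6 counts in the wild-type total libraries and 0, 0 and 1 in the Dgcr8 KO total libraries. The 4sU libraries gave 4, 2 and 6 counts in wild-type and 0, 0 and 1 in Dgcr8 KO. The groups did not overlap, on very few reads. The pooled wild-type level was 13.2 times the Dgcr8 KO level in total RNA (95% counting interval 1.98 to 559) and 11.2 times in nascent RNA (1.66 to 478).

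Eomes (mm10 chr9:118478212-118486132, plus strand), a T-box factor needed for definitive endoderm and for the trophoblast, was the most abundant mesendoderm marker. Its total RNA was 8.85, 6.67 and 7.51 CPM in wild-type and 6.51, 4.78 and 6.46 CPM in Dgcr8 KO, and its nascent RNA was 12.8, 14.6 and 15.2 CPM in wild-type and 10.7, 14.4 and 12.7 CPM in Dgcr8 KO. The total libraries sat just apart and the 4sU libraries overlapped. Neither difference passed the test. The log2 change was -0.36 in total RNA (95% interval -0.74 to 0.02, limma adjusted p = 0.0934) and -0.16 in nascent RNA (-0.49 to 0.16, limma adjusted p = 0.391).

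Mixl1 (mm10 chr1:180693043-180697034, minus strand), a homeobox factor of the primitive streak that acts in mesoderm and endoderm, had more counts in the 4sU than in the total libraries. In nascent RNA it had 27, 22 and 24 counts in wild-type (4.32, 4.58 and 4.25 CPM) and 12, 10 and 13 counts in Dgcr8 KO (2.39, 1.90 and 2.46 CPM). In total RNA it had 4, 5 and 14 counts in wild-type (0.621, 0.607 and 1.62 CPM) and 8 counts in each Dgcr8 KO library (0.898, 1.03 and 1.15 CPM). The 4sU libraries were apart by genotype. The total libraries overlapped through wild-type library 3, while the other 2 wild-type total libraries lay below all 3 of Dgcr8 KO. The log2 change was -0.94 (SE 0.313, limma adjusted p = 0.0117) in nascent RNA, under the limit on the change, and 0.19 (95% interval -0.70 to 1.07, limma adjusted p = 0.723) in total RNA. In DESeq2 the nascent value was -1.02 (DESeq2 adjusted p = 0.0266), past the limit, so Mixl1 was called there, while Otx2 was not. With no minimum in limma the nascent value of Mixl1 was -0.92 (limma adjusted p = 0.0308).

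Mixl1 was also the 1 marker of the 9 whose longest annotated 3′ UTR held a match to the ESCC seed, so that site is shown with microRNAs that carry the seed. The match lay in the 3′ UTR exon of transcript ENSMUST00000027778.7 at position 1202 of 1576, on the minus strand at mm10 chr1:180693400-180693429, and is shown with its flanks, the 7 bases that pair with microRNA positions 2 to 8 in capitals. Mature microRNAs found with this seed in the reference used (RefSeq, GRCm38.p6) follow with the seed in capitals, and the list may not be complete.
Mixl1 site: ccatttttcttAGCACTTgttattatgttt
mmu-miR-291a-3p: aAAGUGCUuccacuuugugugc
mmu-miR-294-3p: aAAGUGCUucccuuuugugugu
mmu-miR-295-3p: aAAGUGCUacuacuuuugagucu
mmu-miR-302b-3p: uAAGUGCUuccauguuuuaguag
mmu-miR-302d-3p: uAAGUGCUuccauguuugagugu
The search was on the sense strand of the UTR only. It covered the pairing of positions 2 to 8, AGCACTT, then the pairing of the seed core followed by an A, which reads GCACTTA, and the core that both share, which reads GCACTT. A 7-base match was present in the 3′ UTR of 21.3% of the 11809 tested genes that have one, and the core alone in 34.0%. A match is a description of the sequence, and whether the site is used was not tested.

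No endoderm marker was called, and only Gata4 had enough counts for the test. Gata4 (mm10 chr14:63198922-63245271, minus strand), a zinc-finger factor of the primitive endoderm, had total RNA at 4.04, 4.97 and 5.66 CPM in wild-type and 5.95, 6.07 and 7.32 CPM in Dgcr8 KO. Its nascent RNA was 10.2, 11.4 and 9.03 CPM in wild-type and 14.1, 15.2 and 14.4 CPM in Dgcr8 KO. The genotypes did not overlap, by a wide gap in the 4sU libraries and a narrow one in the total libraries. The log2 change was 0.52 (SE 0.158, limma adjusted p = 0.00585) in nascent RNA, under the limit, and 0.36 (95% interval -0.03 to 0.76, limma adjusted p = 0.0990) in total RNA, which did not pass.

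Sox17 (mm10 chr1:4490931-4497354, minus strand), an HMG-box factor of both the primitive and the definitive endoderm, had 11, 16 and 7 counts in the wild-type total libraries and 6, 2 and 2 counts in the Dgcr8 KO total libraries. In the 4sU libraries it had 11, 18 and 20 counts in wild-type and 5, 2 and 4 counts in Dgcr8 KO. Every Dgcr8 KO library lay below every wild-type library of its type. Pooled, the wild-type level was 3.44 times that of Dgcr8 KO in total RNA (95% counting interval 1.66 to 7.81) and 4.15 times in nascent RNA (2.13 to 8.86).

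Gata6, a zinc-finger factor placed at the top of the primitive endoderm program, had 3, 7 and 4 counts in the wild-type total libraries and 0, 3 and 2 counts in the Dgcr8 KO total libraries. In the 4sU libraries it had 8, 2 and 10 counts in wild-type and 1, 3 and 2 counts in Dgcr8 KO, where wild-type library 2 fell inside the Dgcr8 KO range. The pooled wild-type level was 2.83 times that of Dgcr8 KO in total RNA with an interval that spans no difference (0.965 to 10.1), and 3.11 times in nascent RNA (1.20 to 9.46).

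**Figure D2:**
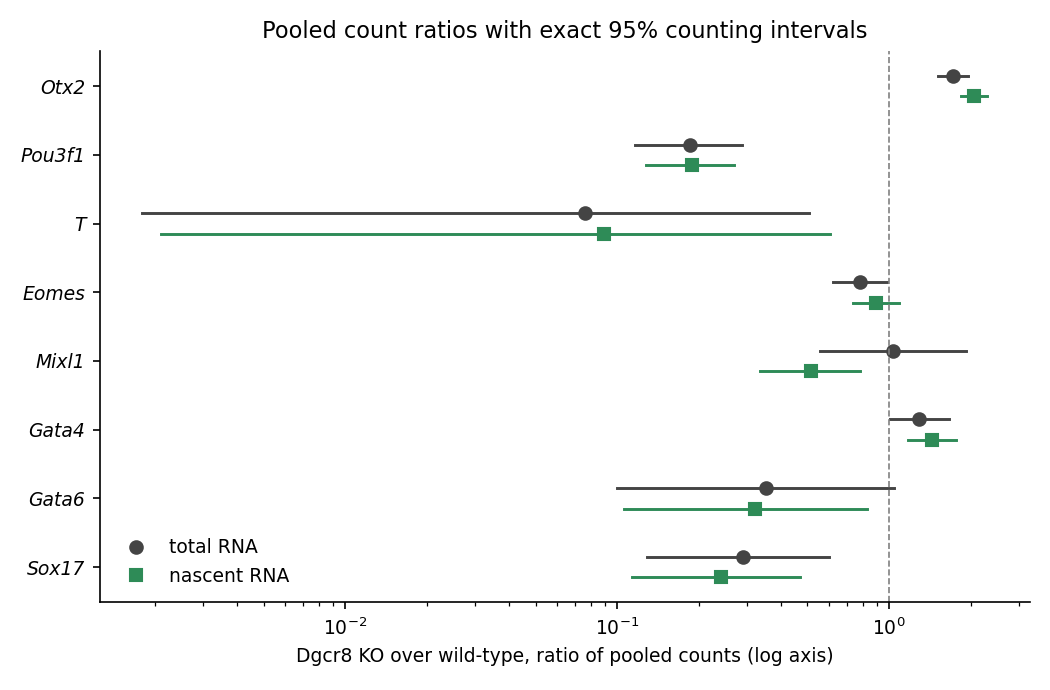
Ratio of the pooled Dgcr8 KO level to the pooled wild-type level for the 8 markers other than Fgf5 (log axis, dashed line at 1), with points for the ratio and bars for its exact 95% counting interval in total RNA (circles) and nascent RNA (squares). Otx2 and Gata4 lie above 1, Pou3f1, T and Sox17 lie below 1 in both library types, and the T intervals span more than the others because Dgcr8 KO had 1 count in each type.

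Counted over all 9 markers, the genotypes did not overlap for 7 in total RNA (2 above and 5 below wild-type), where 38.1% of genes with at least 1 count did not overlap (16.4% above and 21.7% below). They did not overlap for 6 in nascent RNA (2 above and 4 below), against 34.7% of such genes (17.6% above and 17.1% below). Among the genes with enough counts for the test these shares were 68.8% and 59.0%. Each non-overlapping marker had an exact permutation p = 0.1, two-sided, the smallest that 3 against 3 libraries can give, so this test cannot call any of them. In the fit across all genes, 1 of the 5 markers tested was called in total RNA, Pou3f1 as lower, where 17.2% of tested genes were called (9.33% higher and 7.83% lower). In nascent RNA 2 of the 5 were called, Otx2 as higher and Pou3f1 as lower, where 14.8% of tested genes were called (9.5% higher and 5.27% lower). When the minimum was dropped and every gene with at least 1 count was fitted, T and Sox17 were also called as lower, against 12.9% of genes called in total RNA (5.99% lower) and 12.3% in nascent RNA (4.67% lower). The fitted log2 change of T, which depends on the small value added to each count, was -2.59 (limma adjusted p = 0.00130) in total RNA and -2.45 (limma adjusted p = 0.00320) in nascent RNA. Sox17 gave -1.66 (limma adjusted p = 0.0221) and -1.91 (limma adjusted p = 0.00628) in the same fit. Gata6 did not pass it, at -1.59 (limma adjusted p = 0.0974) and -1.29 (limma adjusted p = 0.170).

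Dividing total by nascent RNA asks whether the change in steady-state level follows the change in transcription. None of the 5 markers was called for a change of this ratio between the genotypes, where 1.76% of tested genes were called, and edgeR and DESeq2 called none of them either. At an unadjusted p under 0.05 limma had 1 marker, Mixl1. Neither edgeR (unadjusted p = 0.0706, adjusted p = 0.220) nor DESeq2 (unadjusted p = 0.0883) reached that level for it. The log2 change of its ratio was 1.12 (95% interval 0.03 to 2.22, limma unadjusted p = 0.0439, limma adjusted p = 0.163), with entry into the test decided by its wild-type 4sU libraries as above. Values for the others were -0.26 for Otx2 (-0.55 to 0.03), -0.19 for Eomes (-0.69 to 0.31), -0.16 for Gata4 (-0.66 to 0.35) and -0.02 for Pou3f1 (-0.93 to 0.89). The widest interval that includes 0 is that of Pou3f1, so a change of its ratio up to nearly the limit on the change was not detectable at this depth. Dgcr8 itself was called, with a log2 change of its ratio of -1.09 (SE 0.116, limma adjusted p = 3.12e-08).

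**Figure D3:**
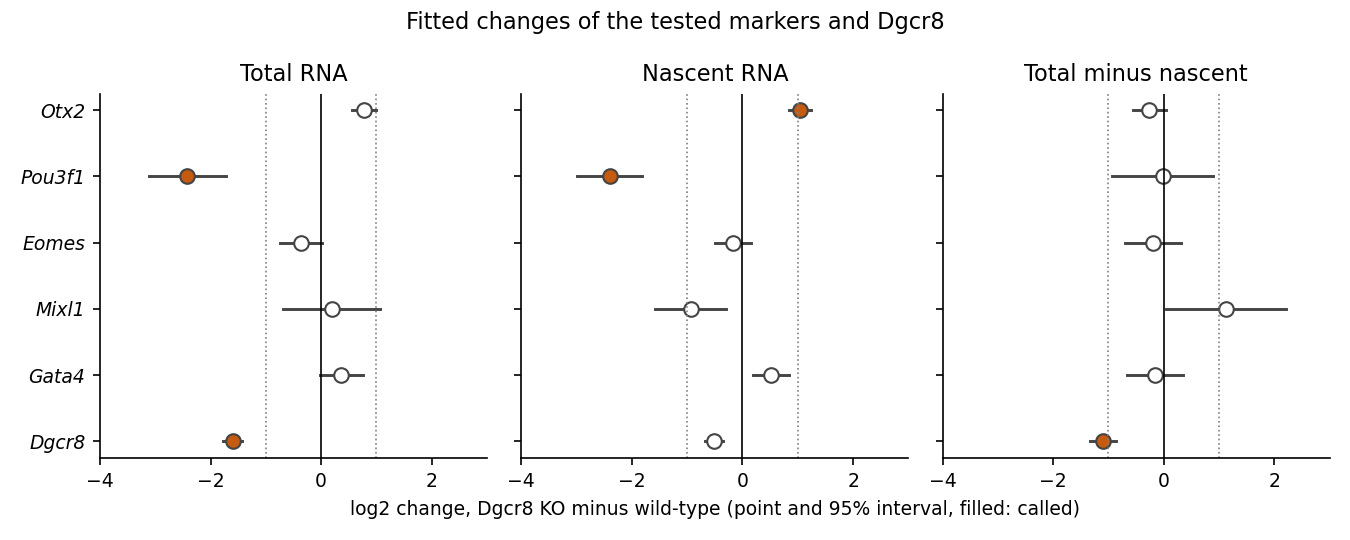
Fitted log2 change, Dgcr8 KO minus wild-type, of the 5 markers tested and Dgcr8 in total RNA, in nascent RNA and in the total to nascent difference, with points for the estimate, bars for its 95% interval, filled points for called genes and dotted lines at the limit of 1. Pou3f1 lies near -2.4 in both RNA types and near 0 in their difference, and Mixl1 is the 1 marker whose difference has an interval above 0.

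In wild-type cells the total to 4sU ratio placed all 5 markers below the median of the tested genes. On the log2 scale relative to that median, Mixl1 was lowest at -1.91 ± 0.577 (SD, n = 3), with 12.3% of tested genes below it. Pou3f1 was at -1.16 ± 0.327, Gata4 at -1.09 ± 0.328, Eomes at -0.94 ± 0.312 and Otx2 at -0.90 ± 0.123, with 22.7% to 27.3% of tested genes below them. These 4 do not differ beyond their spread, and Mixl1 does not differ from Pou3f1 or Gata4 beyond the spread either. In Dgcr8 KO cells all 5 lay within -1.12 and -0.84, and Mixl1 was at -0.84 ± 0.205. Total and 4sU libraries were matched by replicate number for these SDs, and the labels do not say that equal numbers mark a shared culture.

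**Figure D4:**
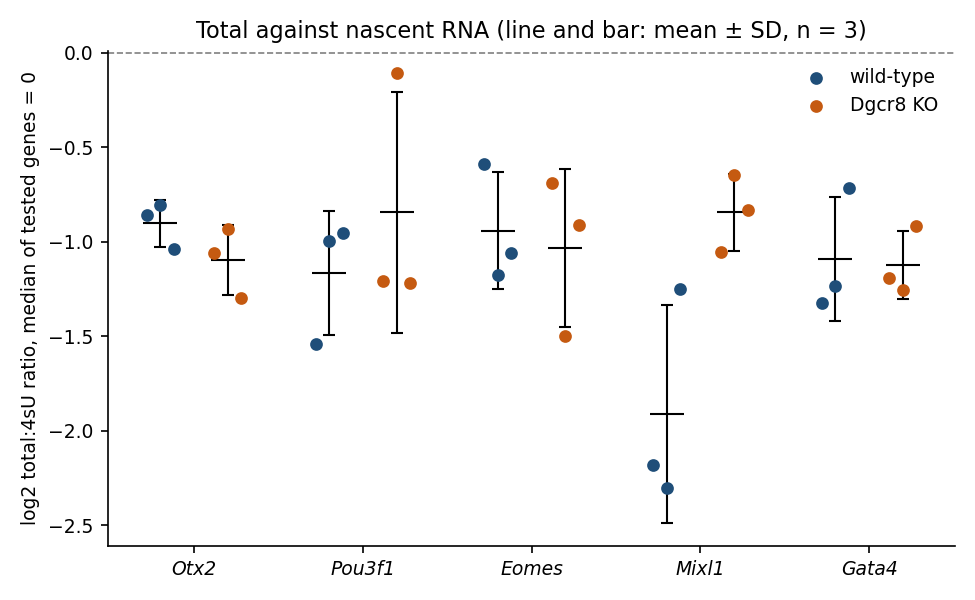
Log2 ratio of total to 4sU level of the 5 markers tested, relative to the median of all tested genes (dashed line at 0), with points for libraries matched by replicate number (blue, wild-type and orange, Dgcr8 KO) and lines with bars for the mean ± SD, n = 3. All values lie below 0, and Mixl1 in wild-type reaches the lowest, with wild-type replicate 3 apart from the other 2.

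Compared with each other per kilobase of gene length (RPKM), Otx2 led in all 4 groups. In wild-type total RNA it was at 6.14 ± 0.507 RPKM (SD, n = 3), followed by Eomes at 2.08 ± 0.298, Pou3f1 at 1.45 ± 0.261 and Gata4 at 1.34 ± 0.224. Pou3f1 and Gata4 did not differ beyond their spread. Mixl1 (0.414 ± 0.253), Sox17 (0.363 ± 0.146), T (0.262 ± 0.0981) and Gata6 (0.186 ± 0.0696) formed a lower group in which no neighbours in the order differed beyond their spread. In Dgcr8 KO total RNA Otx2 was at 10.4 ± 0.971 RPKM, Gata4 at 1.77 ± 0.209 and Eomes at 1.60 ± 0.268 came next without a difference beyond their spread, and Mixl1 at 0.448 ± 0.0546 and Pou3f1 at 0.280 ± 0.115 followed, again without a difference beyond their spread. The wild-type 4sU libraries kept the order Otx2, Eomes, Pou3f1, Gata4 and Mixl1, and the Dgcr8 KO 4sU libraries the order Otx2, Gata4, Eomes, Mixl1 and Pou3f1. Otx2 rose from 10.9 ± 0.403 to 22.5 ± 1.34 RPKM between these.

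Further markers of the formative state and endoderm were called in both directions, while every further mesendoderm marker that was called was higher in Dgcr8 KO. Among those called mesendoderm markers, Evx1 and Kdr met the minimum through Dgcr8 KO libraries alone, so their direction is not free of that choice. Of 17 other formative markers, 15 were tested. In total RNA 2 rose and 3 fell, and in nascent RNA 3 rose and 2 fell, against 9.33% higher and 7.83% lower of all tested genes in total RNA and 9.5% and 5.27% in nascent RNA. Without the limit on the change 8 were higher and 4 lower in total RNA (all tested genes, 27.2% and 36.7%), and 9 were higher and 4 lower in nascent RNA (28.3% and 28.0%). The median log2 change was 0.37 and 0.56 against -0.09 and -0.02 over all tested genes. Lef1 met the minimum through Dgcr8 KO libraries alone, and Tcf15 needed its wild-type libraries. Lef1, a transcription factor of the WNT pathway, rose in nascent RNA from 2.34 ± 0.194 to 9.66 ± 1.80 CPM (SD, n = 3, log2 change 1.99, limma adjusted p = 6.28e-06). Its call in total RNA (log2 change 1.19, limma adjusted p = 0.0224) was weaker. The total counts overlapped, at 2 to 21 per wild-type library and 14 to 22 per Dgcr8 KO library. Their pooled ratio was 1.84 (counting interval 1.16 to 2.98), under a 2-fold change. With no minimum the log2 change of Lef1 was 1.25 in total RNA (limma adjusted p = 0.0490) and 2.00 in nascent RNA (limma adjusted p = 1.35e-04). Foxd3, a forkhead factor, rose in nascent RNA from 132 ± 19.8 to 316 ± 28.7 CPM, and Cdh2, the adhesion protein N-cadherin, rose in total RNA from 5.11 ± 1.18 to 10.6 ± 1.98 CPM. Tcf15, a basic helix-loop-helix factor linked to the primed state, fell in total RNA from 5.35 ± 0.704 to 0.705 ± 0.312 CPM (log2 change -2.88, limma adjusted p = 1.20e-07) and in nascent RNA (log2 change -1.63, limma adjusted p = 7.33e-05). For Tcf15 the fit with no minimum gave -2.85 (limma adjusted p = 2.63e-06) and -1.62 (limma adjusted p = 5.61e-04). Etv4, an ETS factor downstream of FGF signalling, fell in both as well, with log2 changes of -1.23 and -1.46.

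Of 17 other mesendoderm markers, 7 were tested, and 4 of these were called higher in both RNA types and 0 lower, where 9.33% and 9.5% of all tested genes were called higher. Without the limit 4 were higher and 1, Cdx1, was lower in total RNA (log2 change -0.58), against 27.2% and 36.7% of all tested genes. In nascent RNA 5 were higher and 0 lower, against 28.3% and 28.0%. Evx1 and Kdr met the minimum through Dgcr8 KO libraries alone, so no count or median over the 7 is free of that choice. With no minimum the log2 change of Kdr was 2.54 in total RNA (limma adjusted p = 6.52e-07). Evx1, a homeobox gene of the posterior streak, had 0 to 3 counts per wild-type total library and 9 to 24 per Dgcr8 KO total library, a pooled ratio of 8.89 (95% counting interval 3.54 to 28.7), and it rose in nascent RNA from 2 to 4 counts to 38 to 40 (ratio 15.7, 7.70 to 37.2). Snai1, a repressor of epithelial genes at gastrulation, rose in nascent RNA from 7.95 ± 1.55 to 44.9 ± 3.19 CPM (pooled ratio 5.64, 95% counting interval 4.68 to 6.85, limma adjusted p = 4.53e-15). The other 2 that rose, Kdr (a VEGF receptor) and Sp5 (a WNT target gene), are named after their values were seen, with total RNA log2 changes of 2.51 and 1.93. T, Mixl1 and Eomes were not among the genes called higher. Of the 10 not tested, which include Foxa2 (also on the endoderm list), 3 were at or under 3 counts in every library.

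Of 20 other endoderm markers, 12 were tested. In total RNA 2 rose and 4 fell (all tested genes, 9.33% and 7.83%), and in nascent RNA 1 rose and 4 fell (9.5% and 5.27%), with a median log2 change of -0.74 and -0.48. Of the 12, 2 met the minimum through Dgcr8 KO libraries alone and 2 needed their wild-type libraries, Pdgfra among the first and Fgfr2 among the second. Col4a1, a basement membrane collagen, fell in total RNA from 93.1 ± 4.45 to 32.7 ± 2.77 CPM (log2 change -1.51, limma adjusted p = 3.20e-15). Fgfr2, an FGF receptor of the primitive endoderm, fell in total RNA from 5.93 ± 1.17 to 1.22 ± 0.483 CPM (log2 change -2.32, limma adjusted p = 3.94e-06). Its log2 change with no minimum was -2.28 (limma adjusted p = 9.22e-05). Pdgfra, a receptor that marks primitive endoderm, rose in total RNA from 0.943 ± 0.423 to 4.52 ± 1.33 CPM (log2 change 2.20, limma adjusted p = 1.54e-05). The fit with no minimum gave 2.23 (limma adjusted p = 1.41e-04). In nascent RNA Pdgfra did not pass the test (log2 change 0.87, limma adjusted p = 0.0592). No gene of these 3 lists was called for the total to nascent ratio, where 1.76% of all tested genes were called. Without the limit on the change 1 formative (Foxd3), 2 mesendoderm (Gsc and Cdx1) and 1 endoderm marker (Lamb1) had a lower ratio, and 0 a higher one. Over all tested genes 2261 of 14033 passed without the limit, in either direction, and the median log2 change of the ratio was -0.09. No share by direction is available for this comparison.

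**Figure D5:**
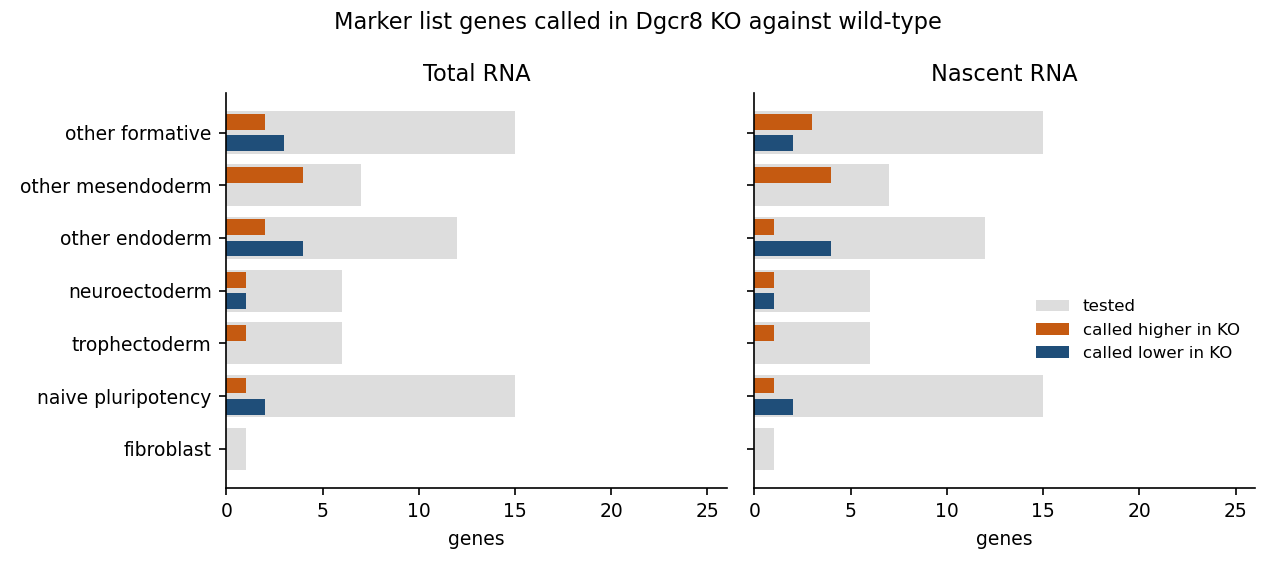
Number of genes in 7 further marker lists that were tested (grey), called higher in Dgcr8 KO (orange) and called lower (blue), in total RNA and in nascent RNA. The other mesendoderm list has 4 of 7 genes higher and 0 lower in both, while the other formative and endoderm lists hold genes in both directions. Of those 4 mesendoderm genes, Evx1 and Kdr met the minimum through Dgcr8 KO libraries alone.

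Lists of other cell types gave the surroundings of these values. Over all tested genes 9.33% were called higher and 7.83% lower in total RNA, and 9.5% and 5.27% in nascent RNA. Of 13 neuroectoderm markers 6 were tested, with Sox11 higher (8.77 ± 0.494 to 30.1 ± 3.29 CPM in total RNA) and Tubb3 lower (47.2 ± 4.37 to 10.9 ± 1.22 CPM). Of 11 trophectoderm markers 6 were tested, with Krt8 higher (9.27 ± 1.44 to 52.4 ± 2.40 CPM). The naive pluripotency list has 15 genes, all tested, and also holds the general pluripotency genes Pou5f1 and Sox2. In it Klf2 was called higher (141 ± 10.7 to 389 ± 9.20 CPM), and Dppa3 (12.9 ± 0.253 to 0.374 ± 0.222 CPM) and Tcl1 (102 ± 6.22 to 24.6 ± 0.951 CPM) were called lower. The 6 genes given here with levels were called in the same direction in nascent RNA. Dppa3 needed its wild-type libraries to meet the minimum and had 1 to 5 counts per Dgcr8 KO library. Its log2 change with no minimum was -5.01 in total RNA (limma adjusted p = 4.41e-09). In nascent RNA it was -3.16 (limma adjusted p = 1.75e-05). Without the limit on the change 5 genes of the naive pluripotency list were higher and 8 lower in total RNA (all tested genes, 27.2% and 36.7%). In nascent RNA 9 were higher and 4 lower (28.3% and 28.0%). Pou5f1 and Sox2 were among the higher genes in both RNA types. Of 9 fibroblast markers, 6 were at or under 3 counts in every library, and 3 of these at 0 in all, Dcn, Postn and S100a4. Their summed level was 10.9 to 13.2 CPM in wild-type and 5.42 to 6.75 CPM in Dgcr8 KO total libraries. It rests mainly on Pdgfrb, with 22 to 81 counts a library where no other gene of the list passed 15, and its part in the marker values was not tested.

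The tested genes whose level over the 12 libraries was most like that of each marker are given as a description, since the libraries share genotype and library type. Lpar2 (Pearson r = 0.992) and P4htm (r = 0.989) were closest to Otx2, and Blzf1 (r = 0.982) and Plxdc2 (r = 0.981) to Pou3f1. Plxdc2 went from 8.56 to 1.94 CPM in total RNA and from 12.3 to 3.08 CPM in nascent RNA between wild-type and Dgcr8 KO. For Eomes they were Rps12-ps26 (r = 0.986), a pseudogene, and 4930579G24Rik (r = 0.978), for Mixl1 Gm48880 (r = 0.969) and Cebpg (r = 0.969), and for Gata4 Gm43912 (r = 0.990) and Gm37760 (r = 0.986).

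In sequence the markers shared little that was searched for. All 9 had an annotated 3′ UTR, from 627 bases in T to 1599 bases in Pou3f1, around the median of 1201 bases over tested genes. The AU-rich heptamer TATTTAT, searched on the sense strand, occurred 4 times in the 3′ UTR of Pou3f1 and in no other marker, and 30.7% of tested genes with a 3′ UTR held at least 1. Genes annotated on the opposite strand overlap Otx2, Pou3f1, Eomes, Gata6 and Sox17, and counting used the strand. Gm49154 overlaps Otx2 on the same strand and has no row of counts, so the strand does not separate its reads from those of Otx2. Otx2os1, which overlaps Otx2, had at most 8 counts in any library and was higher in wild-type than in Dgcr8 KO by counts.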

How the data were processed

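The titles of the 12 samples gave genotype, library type and replicate number. The source name of the 6 knockout libraries reads DDX8KO, and the title and genotype labels, which read DGCR8 KO, were followed. The authors deposited raw counts per gene for all samples. According to the header of the table and the study's methods, reads were trimmed with cutadapt 1.14, mapped uniquely with STAR 2.5.3a to mm10, and counted with featureCounts 1.5.3 on the reverse strand against GENCODE M14 without rRNA genes. Of 51559 rows, 92 were ERCC spike-ins (1 count in all) and were left out, so no absolute amount was available. Symbols were matched for 51274 rows from a later GENCODE release, which also gave 3′ UTRs.

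Counts were scaled with TMM (edgeR 4.0.16) and fitted with voom and limma 3.58.1 in R 4.3.3, with library type, genotype and their interaction over all 12 libraries, for 14033 genes with at least 3 CPM in 3 libraries. P-values were adjusted by Benjamini-Hochberg over all genes tested. Exact permutation tests used log2(CPM + 0.5). Reads carry no molecular identifiers, so intervals and the floor of 3 counts cover counting error only. Nothing in the labels says that replicates came from separate cultures, so p-values measure the spread between these libraries, which may be technical. All replicate pairs differed beyond sampling noise. Alternatives included edgeR's quasi-likelihood test and DESeq2 1.42.0. Named genes were all 9 markers, Dgcr8, 3 pluripotency genes, up to 2 largest rises and falls among called genes of each list, and the 2 genes most like each tested marker. A gene that this rule names is not reported here. The members and lists were chosen with earlier results of these data known.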

Additional observations from a re-analysis of the deposited data

How the results depend on the processing

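Of 235 values computed for single markers under all settings, 218 kept their direction and side of the threshold. The called changes of Pou3f1 held in every setting in which it was tested, from -2.71 to -2.10 in total and -2.60 to -2.20 in nascent RNA when 1 replicate was left out. Otx2 in nascent RNA stayed at 1.01 to 1.10 with a replicate left out. Mixl1 could be fitted in only 3 of the 6 leave-one-out fits, since it falls under the minimum without any of the wild-type replicates, and in those its adjusted p in nascent RNA was 0.0276 to 0.0629, the highest without Dgcr8 KO replicate 2. The ratio change of Pou3f1 was -0.02 and crossed 0 to 0.0032 in edgeR, 0.088 in DESeq2, 0.067 with RLE factors, 0.011 with library size only, 0.046 with upper-quartile factors, 0.0081 without the minimum and 0.023 with a replicate block by genotype and number, and ranged from -0.51 to 0.27 with a replicate left out. With a replicate left out that of Eomes ranged from -0.40 to 0.043 and that of Gata4 from -0.27 to 0.041.

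Markers called in total RNA numbered 3 of 9 tested without the minimum and 2 of 6 with filterByExpr. They numbered 0 of 3 with 3 CPM required in all 12 libraries and 2 of 5 without a limit on the change. In nascent RNA they numbered 4, 3, 1 and 4 under the same settings. With RLE or upper-quartile factors 1 of 5 was called in nascent RNA, where each called 2031 of 14033 genes. Requiring 3 CPM in all 12 libraries leaves 3 markers to test and removes Pou3f1. Genes called in total RNA numbered 4002 of 30975 without the minimum and 2884 of 15720 with filterByExpr. They numbered 1045 of 10261 with 3 CPM in all libraries and 8970 of 14033 without the limit. The same settings gave 3801, 2578, 837 and 7898 in nascent RNA. For the ratio the last 2 gave 115 and 2261, and its split of 111 higher and 136 lower became 147 and 90 with RLE factors, 133 and 96 with upper-quartile factors and 113 and 64 in DESeq2.

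Replicate numbers were not taken to pair the samples. Deviations of equal-numbered libraries correlated at -0.0898 to 0.0823 between genotypes and at 0.0181 to 0.116, all above 0, between library types, which does not show that 4sU and total libraries are unpaired. With the number as a replicate block 2399, 2049 and 254 genes were called in total RNA, nascent RNA and the ratio, and with genotype and number together as a block, which treats equal-numbered 4sU and total libraries as 1 RNA sample, 2413, 2068 and 262. No marker changed its call under either.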
